A study of Homo sapiens with 6 samples.

Results

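Integrins are heterodimeric receptors of an alpha and a beta subunit that bind proteins of the extracellular matrix. Inside the cell the beta tail is engaged by talins and kindlins, and the complex of ILK, PINCH and parvin, the scaffold paxillin, the kinases FAK and SRC, and actin-binding proteins join it to form a focal adhesion. The set examined here holds 42 genes of this system, chosen by symbol: 17 integrin subunits, the collagen-receptor kinases DDR1 and DDR2, the co-receptors CD44, SDC1 and SDC4, and 20 adaptor, kinase and actin-linking genes. All 42 were found among the 35716 genes of the deposited count table, and 38 had enough counts to be tested. Their mRNA was measured by poly(A)-selected sequencing in MIA PaCa-2, an established human line from pancreatic ductal adenocarcinoma, labelled wild type.

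The 3 untreated libraries came from cells kept in serum-containing medium, and the 3 triptolide libraries from cells given 10 nM triptolide for 24 h. Triptolide is a plant diterpenoid known to block transcription through XPB, a helicase of TFIIH. In the series' design text the name control group stands for the triptolide cells. Samples were grouped by their own treatment labels instead. Autophagy and matrix activation are the subjects that the title names. No label ties a library to a culture of its own, and p-values therefore cover only the spread among these libraries, which may be technical. Values are CPM, the counts of a gene per 1e+06 counts of the scaled library, and compare 1 gene between libraries. All changes are relative to the rest of the transcripts in a library. A gene rose or fell where its adjusted p was under 0.05 in edgeR over all 15202 genes tested. Fewer cells of a type and less RNA per cell cannot be told apart in these bulk libraries.

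The libraries held 16302961 to 23262713 counts. The 7 carcinoma markers summed to between 4383 and 6527 CPM untreated and between 3242 and 3950 CPM with triptolide, without overlap. KRT18 and VIM of these fell 1.73-fold and 1.66-fold, KRT8 and the 2 other keratins did not pass, and EPCAM had 4 counts and CDH1 had 5 in the 3 untreated libraries together. The summed level of 23 trophoblast markers ran from 27.4 to 30.0 CPM in the untreated and from 592 to 969 CPM in the triptolide libraries, with CSH1 the most abundant. Several passed the filter on low counts only through the triptolide libraries, with PSG2, PSG6, HSD3B1 and PAGE4 at 0 untreated counts, so no count of calls is given for them. The 8 blood markers in the table summed to between 3.63 and 4.93 CPM untreated and between 13.0 and 25.2 CPM with triptolide. The sums of 6 endothelial markers were 26.2 to 31.5 and 19.2 to 23.3 CPM, mostly CDH5, which fell 1.49-fold. EMCN went from 278 to 232 counts and did not pass, and TEK had 4 and 3 counts. VWF went from 4 to 52 counts, PECAM1 from 5 to 58 and KDR from 10 to 19. For 10 fibroblast markers the sums were 408 to 484 and 307 to 420 CPM, mostly COL1A2, which did not pass. COL1A1, POSTN and THY1 of this list fell, FAP went from 11 counts to 0, and DCN and LUM overlapped between groups. The part of such other-cell markers in the adhesion results was not tested. All these marker lists were chosen with earlier results of these data known, so their sums are descriptions.

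Triptolide replicate 1 was the highest of its group in 22 of the 38 tested members, and triptolide replicate 2 the lowest in 21. Untreated replicate 3 was the lowest of its group in 24, and untreated replicate 1 the highest in 21. In triptolide replicate 1, 18 of the 19 members with the higher GC content lay above the mean of the other triptolide libraries on the log2 scale, against 7 of the 19 with the lower GC content. Across the 38 genes, which share these libraries and are not replicates, Spearman's correlation between GC content and this deviation was 0.76. For untreated replicate 3 against the other untreated libraries the same correlation was 0.42. An offset for GC content was therefore run in 2 forms. The planned one takes the fitted GC trend of each library as it is, and the other, added after the calls of the first had been seen, centres that trend on its median in each library.

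Of the 38 tested members, 3 rose (PTK2B, ILK and TLN2) and 4 fell (ITGA10, TNS1, ITGA1 and FERMT1). Over all tested genes, 10% rose and 5.82% fell, or 15.9% in either direction. The median log2 fold change was -0.02 over the 38 members and -0.004 over all tested genes. The 2 groups did not overlap in 14 of the 38 members, 8 with every triptolide library above and 6 with every one below. Over all tested genes this share was 36.7%, with 19.8% above and 16.9% below. The count of falls depended on the GC offset. With the planned offset 4 members rose and 10 fell, with ITGA3, ITGB4, ITGAE, DDR1, PTK2 and ZYX added to the 4 falls and ITGA7 to the rises. With the centred offset 5 rose and 4 fell. With library totals alone 5 members rose and 3 fell, and with scaling on ribosomal protein genes, which moved the median of all genes to 0.17, 2 rose and 2 fell. Scaling on library totals gave 1671 higher and 594 lower genes in all, ribosomal protein scaling 1175 and 128, and the planned GC offset 1782 and 2566, in place of 1527 and 884.

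The members that passed were mostly scarce. Among the 29 tested members with a mean of at least 10 CPM over the 6 libraries, 0 rose and 1 fell, namely FERMT1, where 11.3% of all genes of that abundance were called. At an unadjusted p under 0.05 in edgeR, SDC1, ITGAE, PXN and ACTN4 of these were also set apart, and DESeq2 called SDC1 higher and ITGAE lower. Among the 9 tested members under 10 CPM, 3 rose and 3 fell, where 22.1% of all such genes were called. ILK is 1 of these rises, and exons of other genes on the opposite strand cover 78.5% of its exon bases. Its place among the scarce genes is therefore uncertain. A scarce gene can pass the filter on low counts through 1 group alone, as ITGA1 did through the untreated and ITGA7 through the triptolide libraries. TNS1 reached it in 3 untreated but only 2 triptolide libraries. The count of 6 in 9 is therefore a description. None of the 15 members with an untreated mean of at least 100 CPM was called. ITGA3, PTK2 and ZYX of these were called lower with the planned GC offset, but not with the centred one.

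**Figure D1:**
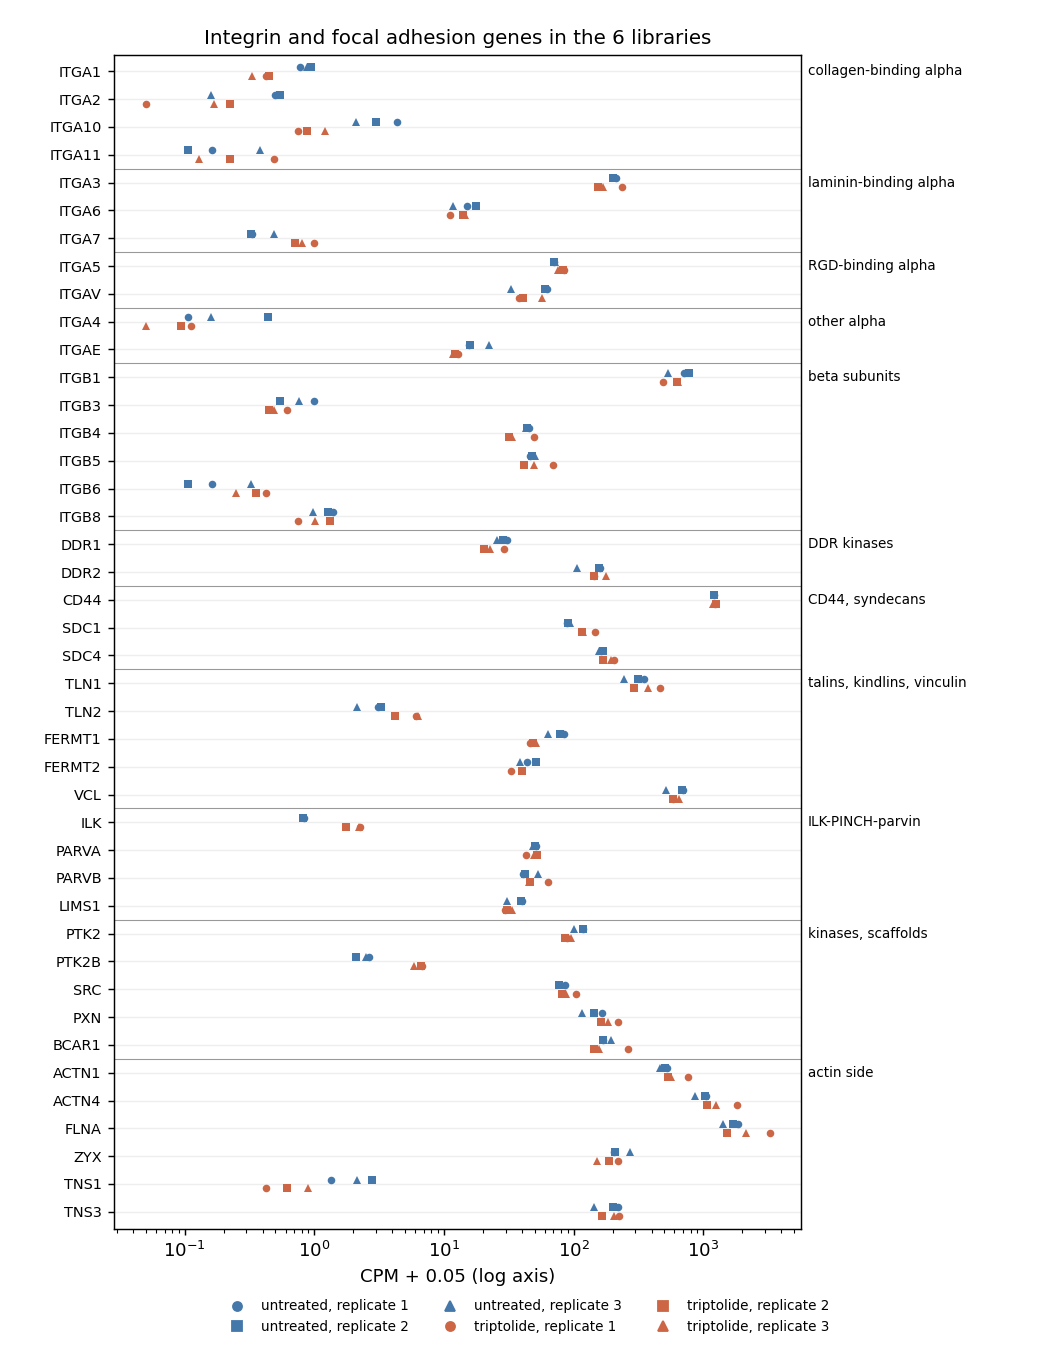
CPM of each of the 42 genes in the 6 libraries, on a log axis with 0.05 CPM added, grouped by role; blue marks are untreated and orange marks triptolide libraries, and the shape gives the replicate. The marks of PTK2B, ILK, TLN2, ITGA10, TNS1, ITGA1 and FERMT1 do not overlap between groups, while those of ITGB1, CD44, VCL and FLNA do.

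**Figure D2:**
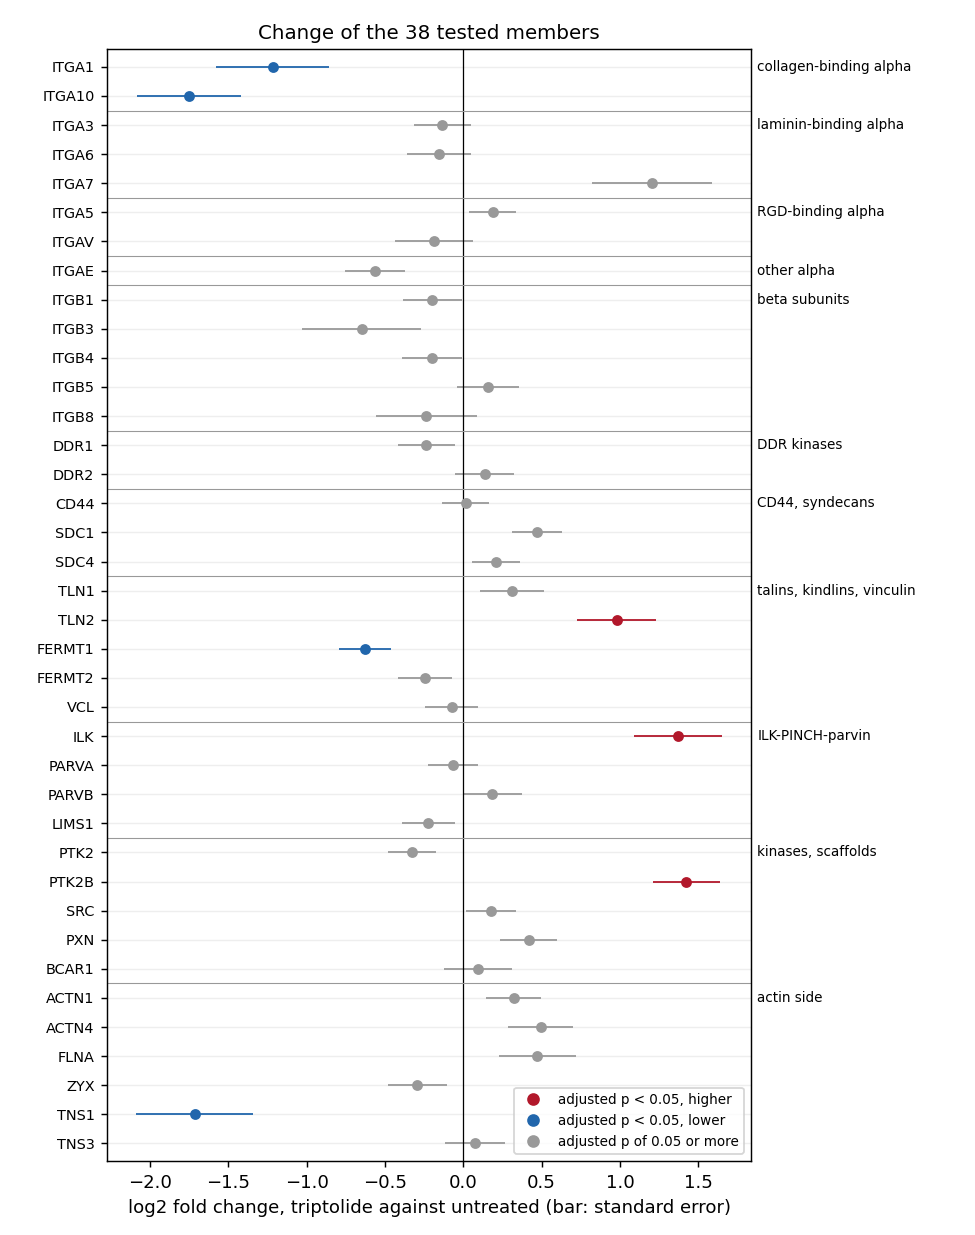
Log2 fold change of the 38 tested members, triptolide against untreated, with its standard error as a bar; red and blue mark the 3 genes that rose and the 4 that fell in edgeR. Most of the other genes lie within 0.5 of 0, and ITGA7 lies at 1.20 without passing the test.

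Of the 4 collagen-binding alpha subunits 2 were tested. ITGA10 (ENSG00000143127), which pairs with ITGB1 and is best known from cartilage, stood at 4.26, 2.94 and 2.04 CPM in the untreated libraries and at 0.693, 0.831 and 1.16 CPM in the triptolide libraries. Every triptolide library lay below every untreated one. ITGA10 fell 3.36-fold, a log2 fold change of -1.75 ± 0.33 (SE, n = 3 libraries each) with an edgeR adjusted p of 0.00444, and it passed in all 16 alternatives that tested it. ITGA1 (ENSG00000213949), a receptor for collagen IV, stood at 0.729, 0.887 and 0.826 CPM untreated and at 0.378, 0.394 and 0.280 CPM with triptolide. These are 44 counts against 22 in all, with every triptolide library below, and ITGA1 was tested only because its untreated libraries reached the filter. ITGA1 fell 2.33-fold (edgeR adjusted p = 0.0387), and without any 1 of the 6 libraries its adjusted p lay between 0.0606 and 0.165. The adjusted p of ITGA1 was 0.0394 with the planned and 0.062 with the centred GC offset, 0.163 with ribosomal protein scaling, and 0.129 in DESeq2. The other collagen-binding subunits were too scarce to test. ITGA2 had 19 untreated counts and 7 with triptolide, and ITGA11 had 9 and 13.

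To show the starts of genes that passed, the 250 bases before the RefSeq start (GRCh38.p14) are given for the called genes that have 1 start in the promoter table and whose sequence is printed here, 5′ to 3′ on the gene's strand. Capitals mark the letters of 5 motifs searched on both strands: the TATA box TATAAA, the GC box GGGCGG, the CCAAT box, the AP-1 site TGANTCA and the cyclic AMP element core TGACG. Which start these cells used was not measured.
ITGA10 (chr1:145910051-145910300, - strand): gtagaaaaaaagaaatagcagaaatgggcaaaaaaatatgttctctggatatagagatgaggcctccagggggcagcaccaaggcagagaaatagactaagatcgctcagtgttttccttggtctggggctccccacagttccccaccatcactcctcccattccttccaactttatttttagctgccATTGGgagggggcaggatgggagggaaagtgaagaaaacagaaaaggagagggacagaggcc
ITGA1 (chr5:52787666-52787915, + strand): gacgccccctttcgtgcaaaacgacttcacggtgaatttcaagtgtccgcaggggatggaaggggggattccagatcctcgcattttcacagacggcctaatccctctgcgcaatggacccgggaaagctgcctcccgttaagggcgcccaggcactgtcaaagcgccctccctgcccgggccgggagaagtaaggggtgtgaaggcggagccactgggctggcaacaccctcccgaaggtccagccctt
TLN2 (chr15:62390300-62390549, + strand): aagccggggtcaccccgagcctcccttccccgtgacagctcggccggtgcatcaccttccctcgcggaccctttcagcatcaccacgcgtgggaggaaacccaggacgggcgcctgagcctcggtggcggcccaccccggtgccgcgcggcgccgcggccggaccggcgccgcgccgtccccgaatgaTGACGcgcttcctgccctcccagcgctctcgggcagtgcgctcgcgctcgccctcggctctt
ILK (chr11:6603524-6603773, + strand): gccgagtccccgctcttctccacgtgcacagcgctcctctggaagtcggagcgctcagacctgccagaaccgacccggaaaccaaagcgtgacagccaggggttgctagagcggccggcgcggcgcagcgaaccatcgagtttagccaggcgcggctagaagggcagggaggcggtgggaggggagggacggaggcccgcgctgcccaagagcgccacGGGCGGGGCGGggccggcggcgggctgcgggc
The ITGA10 window, with 48.4% GC, held 1 CCAAT box, read on the other strand, and the ITGA1 window, with 62% GC, held none of the 5 motifs. The windows of the risen genes TLN2 and ILK had 74.4% and 72.8% GC, and held 1 cyclic AMP element core and 2 overlapping GC boxes. The fallen gene TNS1, not printed because it has 5 windows, had 76% GC in the first of them. Median GC was 65.2% over member windows and 58% over all windows. Whether risen and fallen genes differed in promoter GC content was not tested. Of the 42 members, 33 were in the promoter table, with 67 windows in all. A GC box was found in 52.2% of these windows and in 42.6% of all 35116 windows, and a CCAAT box in 14.9% and 32%. A TATA box was in 8.96% of member windows and 10.7% of all windows. A gene can have several windows, as DDR1 has 8, so the windows are not independent. Of the 33 member genes, 24 had a GC box, 10 a CCAAT box and 5 a TATA box in at least 1 window. The share by gene was not computed over all genes. A match is a string of letters and no measure of binding.

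Among the laminin receptors, ITGA3 (ENSG00000005884), which pairs with ITGB1, was the most abundant alpha subunit. It stood at 212, 202 and 201 CPM untreated and at 237, 154 and 170.1 CPM with triptolide, so that the triptolide libraries lay on both sides of the untreated ones. The log2 fold change of ITGA3 was -0.13 ± 0.18 (edgeR adjusted p = 0.66), and -0.36 with an adjusted p of 0.0371 under the planned GC offset. ITGA3 did not pass under the centred offset. ITGA6, which pairs with ITGB1 or ITGB4, had means of 14.8 ± 3.03 and 13.2 ± 1.93 CPM (SD, n = 3 libraries each). ITGA7 (ENSG00000135424), the laminin receptor of muscle, had 18 counts untreated and 49 with triptolide. Its levels were 0.280, 0.277 and 0.441 CPM and then 0.945, 0.656 and 0.759 CPM, without overlap. The log2 fold change of ITGA7 was 1.20 ± 0.39 with an edgeR adjusted p of 0.0528, which was 0.041 with library totals alone, and 0.0461 and 0.0348 with the planned and the centred GC offset.

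The subunits that recognise the RGD motif of fibronectin and vitronectin did not pass. ITGA5 (ENSG00000161638), the fibronectin receptor subunit, stood at 71.2, 70.0 and 72.2 CPM untreated and at 85.0, 82.5 and 75.7 CPM with triptolide. All 3 triptolide libraries were above, by a log2 fold change of 0.19 ± 0.15 (edgeR adjusted p = 0.427). FN1, its main ligand, named here after its values were seen, fell 8.31-fold in the same libraries, from 180 ± 45.8 to 21.7 ± 12.2 CPM. ITGAV, which pairs with ITGB1, ITGB3, ITGB5, ITGB6 or ITGB8, stood at 61.9, 60.1 and 32.9 CPM untreated and at 37.9, 40.6 and 57.4 CPM with triptolide. Its values overlapped widely, with untreated replicate 3 the lowest of all 6. Of the remaining alpha subunits, ITGA4, a receptor for VCAM1 and fibronectin, had 10 and 2 counts and was not tested. ITGAE, the partner of ITGB7 that binds E-cadherin, stood at 15.6, 15.8 and 22.3 CPM untreated and at 12.7, 12.1 and 11.6 CPM with triptolide. Every triptolide library was lower, and the edgeR adjusted p of 0.0656 became 0.00714 with the planned GC offset, 0.0176 with the centred one and 0.048 in DESeq2.

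Of the 5 tested beta subunits 0 passed in edgeR, with 0 at an unadjusted p under 0.05 and 0 calls in DESeq2, and 1, ITGB4, passed with the planned GC offset. ITGB1 (ENSG00000150093), the partner of most alpha subunits in this set, stood at 713, 772 and 538 CPM untreated and at 489.8, 631 and 644 CPM with triptolide. The groups overlapped, with a log2 fold change of -0.20 ± 0.19 (edgeR adjusted p = 0.511). ITGB4, the hemidesmosome subunit, had means of 44.0 ± 1.4 and 38.5 ± 9.87 CPM, and ITGB5, a vitronectin receptor subunit, stood at 46.4, 47.4 and 50.3 CPM untreated and at 69.7, 41.5 and 49.6 CPM with triptolide. With the planned GC offset the log2 fold change of ITGB4 was -0.44 (adjusted p = 0.0195) in place of -0.20. ITGB4 did not pass with the centred offset. The larger triptolide spread of ITGB4 and ITGB5 came with triptolide replicate 1 as the highest library, at 49.8 and 69.7 CPM. ITGB3, ITGB8 and ITGB6 were scarce, with 39, 63 and 8 untreated counts and 29, 64 and 18 with triptolide. Exons of another gene on the same strand cover 51.6% of the ITGB3 exon bases in GENCODE 29, and how reads shared by both were counted is not stated.

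Per length, as CPM per kb of GENCODE 29 exon, the levels of the alpha subunits in untreated cells were 20.9 ± 0.595 for ITGA3, 9.39 ± 0.143 for ITGA5 and 6.29 ± 1.98 for ITGAV. Next came ITGAE at 2.69 ± 0.569 and ITGA6 at 2.26 ± 0.464, which lay within their spread of each other, and ITGA10 at 0.487 ± 0.177. The other 5 alpha subunits were under 0.1 CPM per kb. With triptolide the first 3 kept this order, at 19.1 ± 4.49, 10.7 ± 0.638 and 5.52 ± 1.29. ITGB1 led the beta subunits at 112 ± 20.3 CPM per kb untreated and 97.9 ± 14.2 with triptolide, followed by ITGB5 at 7.45 ± 0.315 and ITGB4 at 6.51 ± 0.207. ITGB1 made up 88.5% ± 2.15 of the beta sum untreated and 87% ± 4.75 with triptolide. ITGA3, ITGA5 and ITGAV together made up 86.6% ± 0.875 and 89.3% ± 1.56 of the alpha sum. The 4 collagen-binding subunits were 1.39% ± 0.37 of the alpha sum untreated and 0.497% ± 0.0966 with triptolide. The subunits that fell were thus a small part of the integrin mRNA in either group.

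**Figure D3:**
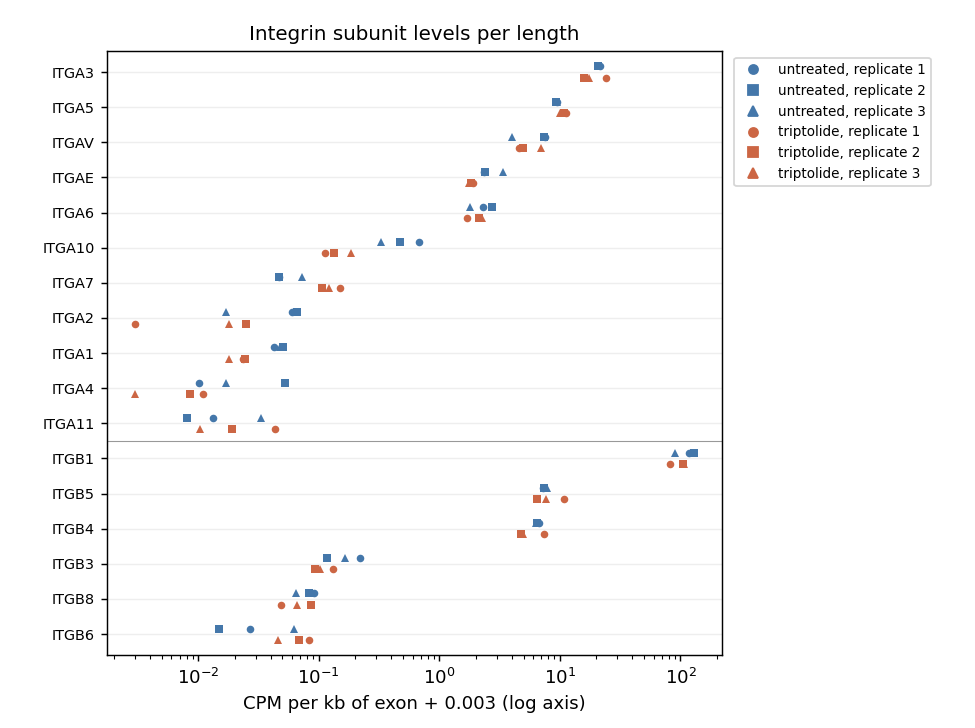
Level of each integrin subunit per length in the 6 libraries, as CPM per kb of exon with 0.003 added, on a log axis; alpha subunits stand above the line and beta subunits below it. ITGA3 at 20.9 and ITGB1 at 112 CPM per kb untreated lead their families, and ITGA10 and ITGA1 lie lower in every triptolide library.

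The other matrix receptors had no call. DDR2, a kinase receptor for fibrillar collagen, stood at 159, 157 and 106 CPM untreated and at 144, 143 and 177 CPM with triptolide, with overlap. DDR1, its epithelial relative, stood at 30.6, 28.3 and 25.8 CPM untreated and 28.9, 20.3 and 22.8 CPM with triptolide (edgeR adjusted p = 0.409). The adjusted p of DDR1 was 0.0273 with the planned GC offset, and DDR1 did not pass with the centred one. CD44 (ENSG00000026508), the hyaluronan receptor, was the steadiest abundant member. Its levels were 1203, 1220.3 and 1222 CPM untreated and 1241, 1257 and 1189 CPM with triptolide, a log2 fold change of 0.02 ± 0.15. SDC1, a heparan sulfate proteoglycan, stood at 89.7, 90.4 and 94.3 CPM untreated and at 146, 116 and 118 CPM with triptolide, with every triptolide library above. The log2 fold change of SDC1 was 0.47 ± 0.16 with an edgeR adjusted p of 0.0622, and it passed with library totals alone (0.0335), among genes averaging at least 5 CPM (0.0471), in DESeq2 (0.0468) and with the centred GC offset (0.0199), but not with the planned one (0.0667). SDC4, the syndecan of focal adhesions, stood at 163, 169 and 157 CPM untreated and at 203, 168 and 193 CPM with triptolide (edgeR adjusted p = 0.387).

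Talins and kindlins bind the beta tail and switch integrins on. TLN2 (ENSG00000171914), the scarcer talin, stood at 3.03, 3.21 and 2.09 CPM untreated and at 6.05, 4.16 and 6.27 CPM with triptolide, without overlap. TLN2 rose 1.97-fold, a log2 fold change of 0.98 ± 0.25 (edgeR adjusted p = 0.0215). Without untreated replicate 3, triptolide replicate 1 or triptolide replicate 3 its adjusted p was 0.0695, 0.0511 and 0.0842, and with ribosomal protein scaling 0.0735. In glmTreat at fold 1.5 the adjusted p of TLN2 was 0.233. TLN1, the main talin, stood at 348, 317 and 244 CPM untreated and at 463, 291 and 374 CPM with triptolide, with overlap (edgeR adjusted p = 0.325). FERMT1 (ENSG00000101311), the epithelial kindlin, stood at 84.1, 78.8 and 63.5 CPM untreated and at 46.4, 48.4 and 51.6 CPM with triptolide. Every triptolide library was below the lowest untreated one. FERMT1 fell 1.55-fold, a log2 fold change of -0.63 ± 0.17 (edgeR adjusted p = 0.0237). The adjusted p of FERMT1 was 0.11 and 0.108 when untreated replicates 1 and 2 were left out, and 0.0561 and 0.0661 when triptolide replicates 2 and 3 were. With library totals and ribosomal protein scaling it was 0.0587 and 0.397. FERMT1 also did not pass with a replicate block, in glmTreat at fold 1.5 or among genes averaging at least 5 CPM. It passed in 8 of the 17 alternatives that tested it. FERMT2, the widely expressed kindlin, stood at 43.8, 51.0 and 38.7 CPM untreated and at 32.9, 39.9 and 39.9 CPM with triptolide. VCL, the vinculin gene that links talin to actin, stood at 702, 686 and 519 CPM untreated and at 583, 581 and 646 CPM with triptolide (edgeR adjusted p = 0.804).

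ILK binds PINCH (LIMS1) and a parvin, and this complex joins the beta tail to actin. ILK (ENSG00000166333) had 14 counts in each untreated library and 35, 39 and 54 in triptolide replicates 1, 2 and 3. In CPM this was 0.785, 0.776 and 0.771 against 2.20, 1.71 and 2.16, without overlap. ILK rose 2.58-fold, a log2 fold change of 1.37 ± 0.28 (edgeR adjusted p = 0.00683), and it passed in all 16 alternatives that tested it. Exons of other genes on the opposite strand cover 78.5% of the ILK exon bases in GENCODE 29, most of them those of TAF10, and the strand setting of the counts is not given in the sources used here. TAF10, a TFIID subunit, had 56, 47 and 64 counts untreated and 80, 72 and 98 with triptolide, and did not pass (edgeR adjusted p = 0.332). The counts of ILK are therefore an uncertain measure of its mRNA level. PARVA stood at 51.3, 50.7 and 48.5 CPM untreated and at 42.6, 51.8 and 49.4 CPM with triptolide, and PARVB at 40.4, 41.8 and 53.0 CPM and then 63.0, 45.9 and 45.2 CPM. LIMS1 had means of 36.6 ± 5.18 and 31.3 ± 2.15 CPM. These 3 partners did not pass.

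PTK2B (ENSG00000120899), which encodes the FAK relative PYK2, had the smallest adjusted p of the set. It stood at 2.58, 2.05 and 2.48 CPM untreated and at 6.68, 6.56 and 5.87 CPM with triptolide. The triptolide values lay close together and far above the untreated ones. PTK2B rose 2.68-fold, a log2 fold change of 1.42 ± 0.21 (edgeR adjusted p = 0.00113), and passed in all 16 alternatives that tested it. PTK2 (ENSG00000169398), the FAK gene itself, stood at 118, 119 and 101 CPM untreated and at 88.7, 86.2 and 95.4 CPM with triptolide. Every triptolide library of PTK2 was below, by a log2 fold change of -0.33 ± 0.15 (edgeR adjusted p = 0.172). The adjusted p of PTK2 was 0.0459 with the planned GC offset, and PTK2 did not pass with the centred one. Per length, PTK2 remained above PTK2B, at 6.56 ± 0.346 against 0.803 ± 0.055 CPM per kb with triptolide. PXN, the paxillin scaffold, stood at 166, 144 and 115 CPM untreated and at 221, 164 and 183 CPM with triptolide, with an overlap of 1 library (edgeR adjusted p = 0.143). BCAR1, the scaffold p130Cas, had means of 177 ± 14.1 and 189 ± 66.3 CPM, with 265 CPM in triptolide replicate 1, and SRC 80.6 ± 4.51 and 91.1 ± 12.6 CPM.

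The actin-binding members held the most abundant genes of the set. FLNA, the crosslinker filamin A, stood at 1869, 1703 and 1415 CPM untreated and at 3253, 1522 and 2149 CPM with triptolide. ACTN4, an alpha-actinin, stood at 1047, 1036 and 872 CPM untreated and at 1827, 1078 and 1254 CPM with triptolide, with every triptolide library above. In both genes triptolide replicate 1 was the highest library by far. Their log2 fold changes were 0.47 ± 0.25 and 0.49 ± 0.21 (edgeR adjusted p = 0.216 and 0.125), and both depended on single libraries. Without triptolide replicate 2 they were 0.70 and 0.65 and passed, at adjusted p-values of 0.0375 and 0.0417. Without triptolide replicate 1 they were 0.16 and 0.26, at adjusted p-values of 0.623 and 0.277. ACTN1, the other alpha-actinin here, stood at 522, 511 and 461 CPM untreated and at 761, 538 and 568 CPM with triptolide (edgeR adjusted p = 0.236). ZYX, the zyxin gene of mature adhesions, had means of 229 ± 38.1 and 187 ± 34.9 CPM (edgeR adjusted p = 0.315). The adjusted p of ZYX was 0.0189 with the planned GC offset, and ZYX did not pass with the centred one. TNS1 (ENSG00000079308), a tensin of fibrillar adhesions, stood at 1.29, 2.71 and 2.09 CPM untreated and at 0.378, 0.569 and 0.839 CPM with triptolide, without overlap. TNS1 fell 3.28-fold, a log2 fold change of -1.71 ± 0.37 (edgeR adjusted p = 0.00906), and passed in all 16 alternatives that tested it. It reached the filter on low counts in 3 untreated but only 2 triptolide libraries. Its triptolide libraries alone would thus not have brought TNS1 into the test. TNS3, the abundant tensin, stood at 219, 203 and 144 CPM untreated and at 223, 166 and 207 CPM with triptolide (edgeR adjusted p = 0.829).

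Related members were also compared within each library, as the log2 ratio of their counts with 0.5 added, which does not depend on scaling between libraries. The ratios take no account of GC content, in which paired genes can differ, as PTK2B at 55.8% and PTK2 at 44.6% do. The part of GC content in the ratios was not tested. In 5 of 10 pairs the groups did not overlap, and the share over other gene pairs was not computed. The exact two-sided permutation test of 3 against 3 libraries cannot go below p = 0.1, and these 5 had that p and an adjusted p of 0.2 over the 10 pairs. The ratio of PTK2B to PTK2 was -5.56 ± 0.257 untreated and -3.82 ± 0.173 with triptolide, a difference of 1.74 ± 0.179 (SE) or 3.35-fold. For TNS3 over TNS1 the difference was 1.82 ± 0.548, for TLN2 over TLN1 0.67 ± 0.129, and for FERMT2 over FERMT1 0.38 ± 0.112. The ratio of SDC4 to SDC1 was lower with triptolide, by a difference of -0.26 ± 0.0837. Of these 5 pairs 4 hold a gene already called in the same libraries, so their ratios are no separate evidence of those calls. ITGA5 over ITGAV, PARVB over PARVA, DDR2 over DDR1, ACTN4 over ACTN1 and ITGB5 over ITGB1 overlapped between groups, with exact permutation p-values of 0.3 or 0.5.

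**Figure D4:**
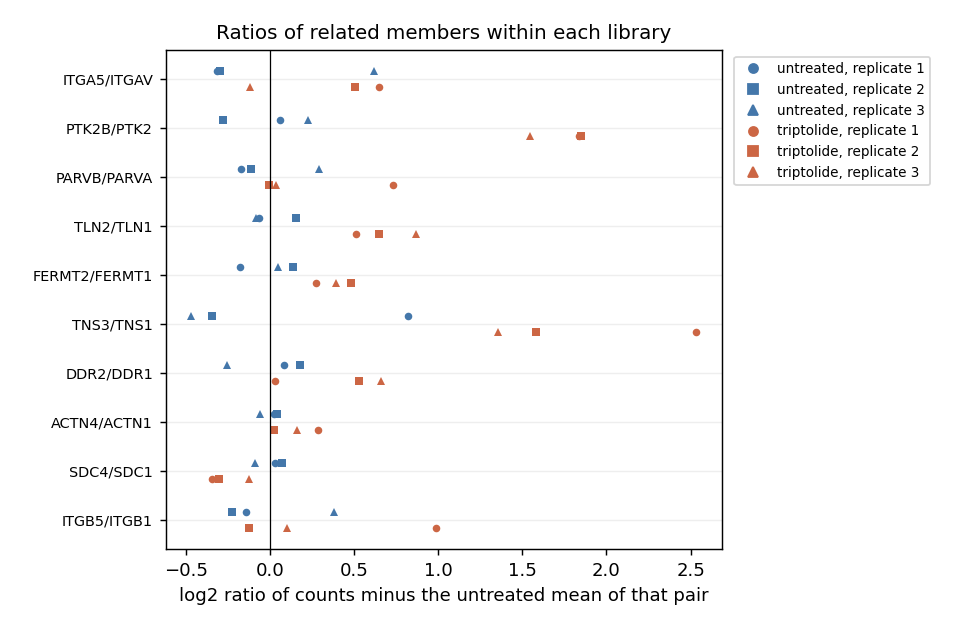
Log2 ratio of the counts of 2 related genes within each library, minus the untreated mean of that pair; blue marks are untreated and orange marks triptolide libraries. PTK2B/PTK2, TLN2/TLN1, FERMT2/FERMT1 and TNS3/TNS1 lie to the right in every triptolide library, and SDC4/SDC1 to the left.

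The wider pathway was read from 4 lists. Of 4 tested integrin subunits outside the set, 0 rose and 0 fell in edgeR, 0 of them at an unadjusted p under 0.05. The most abundant, the leukocyte subunit genes ITGB2 and ITGAD, had means of 1.39 ± 0.154 and 1.06 ± 0.263 CPM untreated and 1.91 ± 0.645 and 1.39 ± 0.578 CPM with triptolide. Of 48 other tested focal adhesion genes, 3 rose and 2 fell, where 15.9% of all tested genes were called. Their median log2 fold change was -0.06. CASS4, a relative of BCAR1, rose 10.7-fold from 0.111 ± 0.0564 to 1.24 ± 0.141 CPM, on 6 untreated counts. CASS4 passed the filter on low counts only through the triptolide libraries, so the count of 3 rises is a description. The pseudokinase gene PEAK1 rose 1.7-fold to 34.7 ± 5.01 CPM. PDLIM1, an alpha-actinin partner, fell 1.73-fold to 33.3 ± 3.66 CPM, and GRB7, an adaptor that binds FAK, 1.93-fold to 5.87 ± 0.374 CPM.

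Among 25 tested integrin regulators, where 15.9% of all tested genes were called, 1 rose and 1 fell. These were PLAUR, the urokinase receptor, which rose 2.18-fold, and ARF6, a GTPase of integrin recycling, which fell 1.39-fold from 232 ± 11.9 to 166 ± 8.14 CPM. Of 26 tested integrin ligands 2 rose and 6 fell, where 15.9% of all genes were called, and their median log2 fold change was -0.001. THBS1 and COL1A1 fell 64.9-fold and 21.7-fold, and POSTN had 441 counts untreated and 3 with triptolide. THBS1 and POSTN passed the filter on low counts only through the untreated libraries, so the count of 6 falls is a description. LAMA3, a chain of the laminin that ITGA3 and ITGA6 bind, rose 3.66-fold from 0.684 ± 0.177 to 2.53 ± 0.158 CPM, and MFGE8, a ligand of the ITGAV integrins, 1.6-fold. Whether ligands and receptors differed in how often they were called was not tested.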

How the data were processed

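Per Ensembl ID, the authors deposited whole-number counts, and the values show no normalisation. The submitters' processing notes list HISAT2 and featureCounts without versions. Genome build, annotation, strand setting and the treatment of shared reads: not given in the sources used here. IDs were matched to symbols by ID (35639 of 35716). Exon lengths, exon overlaps and GC content came from GENCODE 29, and 99.2% of tested genes had a GC value.

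Genes were kept by filterByExpr (minimum count 10), TMM-scaled, and tested in edgeR 4.0.16 in R 4.3.3 (glmQLFit, glmQLFTest), on a design of group alone, and p-values were adjusted by Benjamini-Hochberg over all genes. The standard error is the log2 fold change over the root of its F statistic. The fit was tested on simulated data. The members and lists were chosen with earlier results of these data known. Library values are printed for called members, the most abundant member of each role and both genes of each ratio, and others by their means. From each wider list up to 3 called genes per direction with the smallest adjusted p are named, or the 2 most abundant. A further list and 1 called gene are not reported here. Ratios used exact permutation tests. Scaling was varied (RLE factors, library totals, 79 ribosomal protein genes), as were the filter (none, or an average of 5 CPM or more) and the tool (DESeq2 1.42.0, voom in limma 3.58.1, glmTreat at fold 1.5). Further fits had a replicate block, a loess GC offset, or 1 library fewer. A GC offset centred on its median per library was added after the planned, uncentred one had been run and its calls seen. Figures were drawn with matplotlib 3.10.9. Depth limits the scarcest genes: 4 members were not tested.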

Additional observations from a re-analysis of the deposited data

How the results depend on the processing

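PTK2B, ILK, ITGA10 and TNS1 passed in all 16 alternatives that tested them, and none of the 7 called members changed direction. The triptolide libraries alone would not have brought TNS1 past the filter on low counts. TLN2 passed in 11 of 16, FERMT1 in 8 of 17 and ITGA1 in 4 of 16. Every alternative used the same counts, so none bears on the exon overlap that makes the ILK counts uncertain. As planned, the GC offset gave 10 falls among members and 2566 over all genes. Centring it on its median in each library, which was chosen after seeing the data and those calls, gave 5 rises and 4 falls among members and 1516 falls over all genes. Of the 6 further falls of the planned offset, ITGAE also passed when centred, and ITGA3, ITGB4, DDR1, PTK2 and ZYX did not.

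Members had 5 rises with library totals, 2 falls with ribosomal protein scaling and with glmTreat, and 1 rise (SDC1) and 0 falls when averages of at least 5 CPM were required. Leaving out 1 library gave 2 to 5 rises and 2 to 3 falls. Over all genes there were 128 falls with ribosomal protein scaling, 584 rises and 336 falls for averages of at least 5 CPM, and 608 and 135 with glmTreat. Without 1 library these ran from 953 to 1580 and from 407 to 1034.

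Same-numbered libraries did not deviate together (correlations of 0.03, -0.04 and -0.44), so the numbers are not taken to pair them. With the replicate block 3 members rose and 2 fell, and 1523 rose and 856 fell over all genes.

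Uncalled log2 fold changes that changed sign were PARVA 0.00071 with library totals, and ITGA3 0.016, VCL 0.069 and PARVA 0.10 with ribosomal protein scaling. For averages of at least 5 CPM they were VCL 0.0045 and PARVA 0.015. With the planned GC offset they were ITGB5 -0.031, CD44 -0.027, SRC -0.026, BCAR1 -0.15 and TNS3 -0.12, and with the centred one ITGAV 0.094, ITGB1 0.032, ITGB8 0.0051, FERMT2 0.081, VCL 0.0063, PARVA 0.036, BCAR1 -0.043 and TNS3 -0.0024. Without 1 library CD44 ran from -0.00061 to 0.040, DDR2 from -0.039 to 0.23, TNS3 from -0.10 to 0.19, ITGB5 from -0.058 to 0.32, PARVA from -0.12 to 0.027, BCAR1 from -0.21 to 0.26, and the ratio of ITGB5 to ITGB1 from -0.016 to 0.54. The causes of these were not tested.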
